A study of Solanum tuberosum with 12 samples.

Results

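The deposited table of small RNA counts from potato tubers held 135 predicted miRNAs of 23 nt and longer that had at least 100 counts in all. They were taken by rule: the authors had predicted the entry, its listed length was 23 nt or more, its total over the 12 libraries was 100 or more, and entries with the same sequence were reduced to the one with the highest total. The 135 sequences came from 180 entries, among 1676 distinct predicted sequences (2463 entries) of that length at any total and 5730 distinct sequences (7827 entries) in the table. The total count therefore chose them, and their abundance is given as a description. A weakly counted sequence can reach 100 only through the cultivar where it is high, so such contrasts are partly selected by the rule. Names are the authors' numbers with the arm of the hairpin, such as m0947-5p. In all, 130 were 23 nt long, 3 were 24 nt (m4482-3p, m2217-3p and m0073-5p) and 2 were 25 nt (m5703-3p and m5138-3p).

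Tubers of 4 potato (Solanum tuberosum) cultivars were sampled, with 3 libraries each: LK99, Longshu No.7, Black kingkong and Red beauty, all grown at one station under common irrigation, light and temperature and 150 days old at harvest. No treatment or genetic change was labelled for any of them. The study's title puts it in a comparison of miRNAs around anthocyanin, the red to purple pigment of coloured tubers. RNA of 18 to 30 nt was selected on a gel and sequenced on a HiSeq 2500. Whether the 3 libraries of a cultivar came from separate plants is not labelled, so the p-values speak only of the spread among these libraries, whose source may be technical.

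In plants, a miRNA is cut from a hairpin by a DICER-LIKE enzyme, and one arm is loaded into an ARGONAUTE protein that cuts or represses RNAs it pairs with almost along its whole length. Most well-known plant miRNAs are somewhat shorter than the sequences described here. Longer plant small RNAs are mostly short interfering RNAs that other DICER-LIKE enzymes cut from double-stranded RNA of repeats and transposons and that guide DNA methylation, so a length alone does not show which route made a sequence. No target, hairpin or genome position was available here for any of the 135 sequences, and their roles are not known from these files.

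The sequences that the results below turn on are printed 5′ to 3′ with the letters of the table (T for U). Capitals mark bases 2 to 8, the seed. The first set holds the most counted sequences, in order of total.
m0947-5p: tTACGAGAcagaagtgacatgac
m2328-3p: gGATCCAAgagctcggttcatgg
m5006-5p: aGGGACTAtctaggtatttagcc
m5112-3p: gAGAAACAatgaaccaaacactt
m4482-3p: aGTGAATGaagcgggagtacaagt
m2292-3p: tAGAGAATtctagaagagggact

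The next set holds sequences with no or almost no counts in 1 or more cultivars.
m2100-5p: tTTGGTTGacgggttggtagcct
m4768-5p: tTGGTTAGagaagaaagaagact
m3194-3p: tTGTCGGCcacatgtaataaggc
m2657-5p: tCTGGACCtatggtgctcagact
m2733-5p: aCGGAATAgtcatgataatatca
m0123-3p: cAGAGAATtcgcatatagatggc

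The last set holds sequences that stood highest in 1 cultivar, or in 2 for m2385-5p, followed by m5125-5p, whose test statistic was the smallest among sequences of at least 5 CPM.
m1132-5p: cCCTGTCGtctaaaaactagagc
m3258-3p: cGTACTCTtgtagttcttaacct
m2597-5p: aGGGTGTTgtgaacatgtcaact
m0426-3p: aTGATTAGacatttgatgaacct
m0083-5p: tTACTAAActttcatgaggacct
m2385-5p: gTTGGCACctcttaacacaagtt
m5125-5p: tACACTGTaattacacatgtcct

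The 135 sequences had 130 distinct seeds. Only 5 seeds occurred in 2 sequences each: those of m2292-3p and m0123-3p, m2352-3p and m3572-5p, m5922-5p and m5945-5p, m2588-5p and m3797-3p, and m6095-3p and m3535-3p. A single one (0.741%) had the seed of a potato-named miRNA, against 2.71% of the predicted 22 nt sequences and 1.49% of those of 21 nt chosen by the same total. None was identical to an entry with a potato name or a name from other species.

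Libraries held 5.61 to 7.35 (in 1e6) counts, and 37024 counts in all fell on these sequences. Levels are CPM, the counts per 1e6 counts of a library, with library sizes scaled by TMM factors, which align the bulk of entries between libraries. A call is an adjusted p under 0.05 in edgeR's quasi-likelihood test, with Benjamini-Hochberg adjustment over the 1349 entries tested. Of the 135 sequences, 134 passed the filter on low counts and were tested, and m1700-3p, with a total of 101, did not pass. Longshu No.7 replicate 3 stood apart before any comparison: over the 134 sequences its log2 CPM correlated with the other 2 libraries of its cultivar at r = 0.668 and 0.611, while the other 10 pairs within a cultivar lay between 0.707 and 0.905. Over all entries tested the same figures were 0.861 to 0.865 and 0.902 to 0.974. These correlations are across sequences of libraries that share 1 table and are given as a description. In 14 of the 135 sequences that library was at least 4 times below both others of Longshu No.7, and in 1 it was at least 4 times above them, after 0.1 CPM was added. LK99 replicate 3 was 4 times or more apart in 4 sequences, and each of the other libraries in at most 2. Several results that rest on these libraries are therefore given with and without them.

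**Figure D1:**
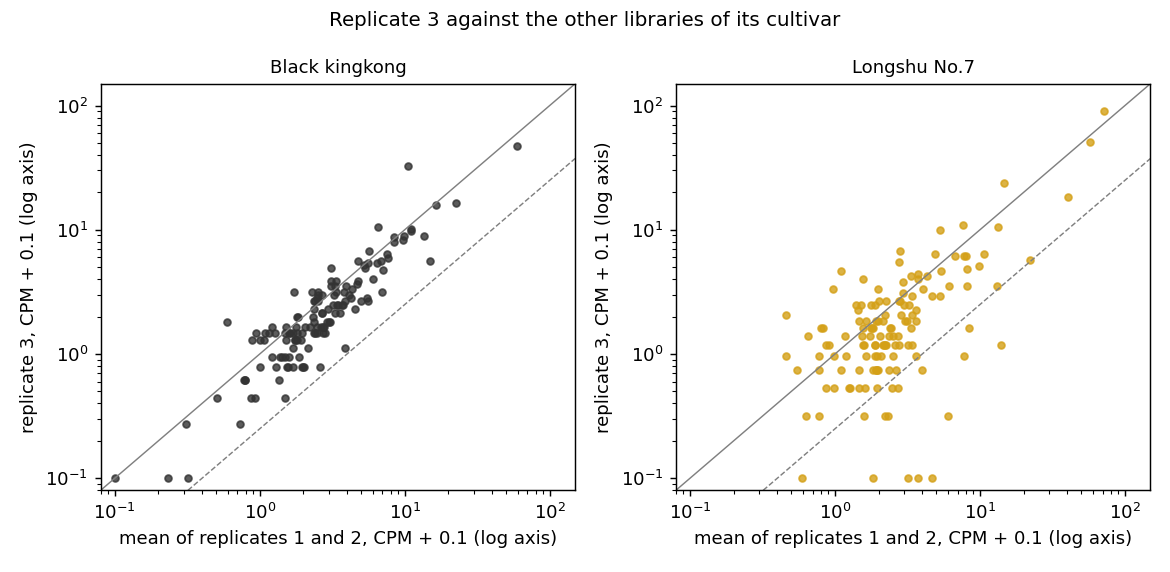
CPM of each of the 135 sequences in replicate 3 (vertical axis) against the mean of replicates 1 and 2 (horizontal axis) in Black kingkong and Longshu No.7, both on log axes after 0.1 CPM was added; the solid line marks equal levels and the dashed line a level 4 times lower. No Black kingkong sequence was 4 times or more apart in replicate 3 from both other libraries, while 14 Longshu No.7 sequences were at least 4 times lower there. In unscaled CPM replicate 3 was the lowest of its cultivar in 91 of the 135 sequences for Black kingkong and in 98 for Longshu No.7.

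The sequences were a small part of each library. In unscaled CPM they summed to 488 ± 108 for Black kingkong (SD, n = 3), 410 ± 61.7 for Red beauty, 524 ± 148 for Longshu No.7 and 496 ± 19.0 for LK99. By library the sums were 598, 484 and 381 for Black kingkong, 440, 450 and 338 for Red beauty, 641, 574 and 358 for Longshu No.7, and 518, 483 and 486 for LK99. The ranges overlapped except those of Red beauty and LK99, where all 3 Red beauty libraries were lower. With TMM-scaled sizes this order reversed. The LK99 libraries then summed to 376, 408 and 413 CPM, below every other library (431 to 594 CPM). Without replicate 3 the unscaled Longshu No.7 mean was 607. The predicted 22 nt sequences chosen by the same total summed to 1675 ± 70.3 unscaled CPM for Red beauty and 3985 ± 385 for LK99, a wider gap between cultivars. Those of 21 nt held 5765 ± 1916 for Longshu No.7 and 28725 ± 1353 for Black kingkong.

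**Figure D2:**
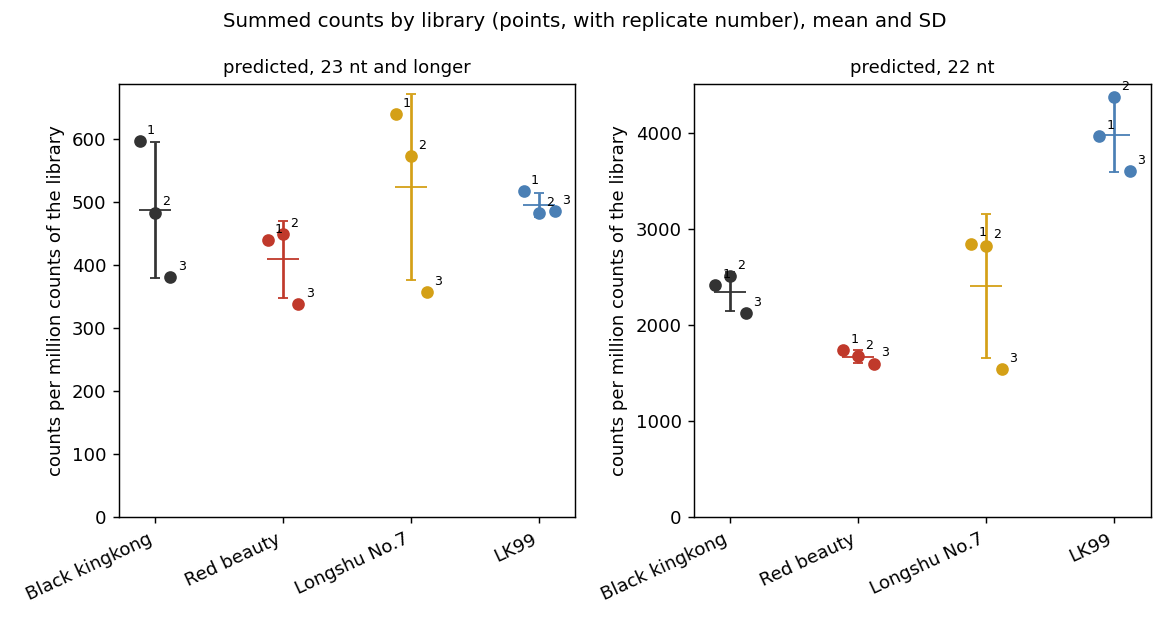
Summed counts of the predicted sequences of 23 nt and longer (left) and of 22 nt (right) with a total of 100 or more, in unscaled CPM (counts per 1e6 counts of the library, vertical axis, from 0), by cultivar; points are libraries with their replicate number, and bars are mean and SD. The longer class lay between 338 and 641 CPM in every library, and replicate 3 was the lowest Longshu No.7 library in both panels.

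Counts were spread over many weakly counted sequences. The median total was 154, 90 sequences had a total under 200, 26 reached 300 and 6 reached 1000. The first 10 held 35.7% of the counts. Mean levels ran from 1.16 to 59.6 CPM with a median of 1.99 CPM, and 125 of the 135 had at least 1 count in every library. At the edge of the rule lay m0349-3p with a total of 100 and m5962-3p and m1700-3p with 101, and, just outside it, m0551-5p, m0683-5p and m0698-5p with 99.

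Many of the sequences ended in the same letters, a feature that was noticed after the sequences had been read. The last 3 bases were ACT in 39 of 135 (28.9%), against 15 of 221 predicted sequences of 22 nt (6.79%), 14 of 202 of 21 nt (6.93%) and 3 of 17 of 20 nt or shorter (17.6%). Among the 1541 predicted sequences of 23 nt and longer with a total under 100, 550 (35.7%) ended so. Of 149 potato-named or other-species-named sequences of 23 nt and longer, of which 116 had 24 nt, 13 (8.72%) did.
m2292-3p: tagagaattctagaagagggACT
m5596-5p: taacttggcgtcagctgacaACT
m5099-5p: ttacaagcctgtttagattgACT
m4066-5p: tctggatgtggacattcatgACT
m2597-5p: agggtgttgtgaacatgtcaACT
m5684-3p: ctgctgtgatgatactcagaACT

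These are the 6 most counted sequences with this end, which the capitals mark. At inner positions of the 135 sequences, ACT took 1.88% of the places, and 1 sequence (0.741%) began with it. The base before ACT was A in 22 and G in 12. T was the last base in 81 (60.0%), against 46.6% at 22 nt and 42.1% at 21 nt. At the other end T was the first base in 66 (48.9%), A in 29 (21.5%), G in 23 and C in 17. Among the named sequences of this length A came first in 49.0%. GC content had a median of 39.1% and ran from 17.4% to 65.2%. All 39 sequences ending in ACT were tested, and 15 (38.5%) differed among the cultivars, against 44 of the 95 others tested (46.3%). Their median level was 1.72 CPM against 2.05 CPM. No test was made on these shares.

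Of the 134 tested, 59 (44.0%) differed among the 4 cultivars, below the 59.0% of all 1349 entries tested. The share was 69.7% (152 of 218) among predicted sequences of 22 nt and 63.2% (127 of 201) among those of 21 nt, and 27.3% (12 of 44) among named entries of 23 nt and longer. The classes differ in level as well as in length, and the median totals were 154 at 23 nt and longer, 255 at 22 nt and 244.5 at 21 nt. Without Black kingkong replicate 1 the count was 38. In 62 sequences no pair of cultivars passed the test, and in 9 at least 4 of the 6 pairs did. The largest of a sequence's 6 log2 fold changes had a median size of 1.31. It reached 2 in 33 sequences and 3 in 14, and stayed under 1 in 44.

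**Figure D3:**
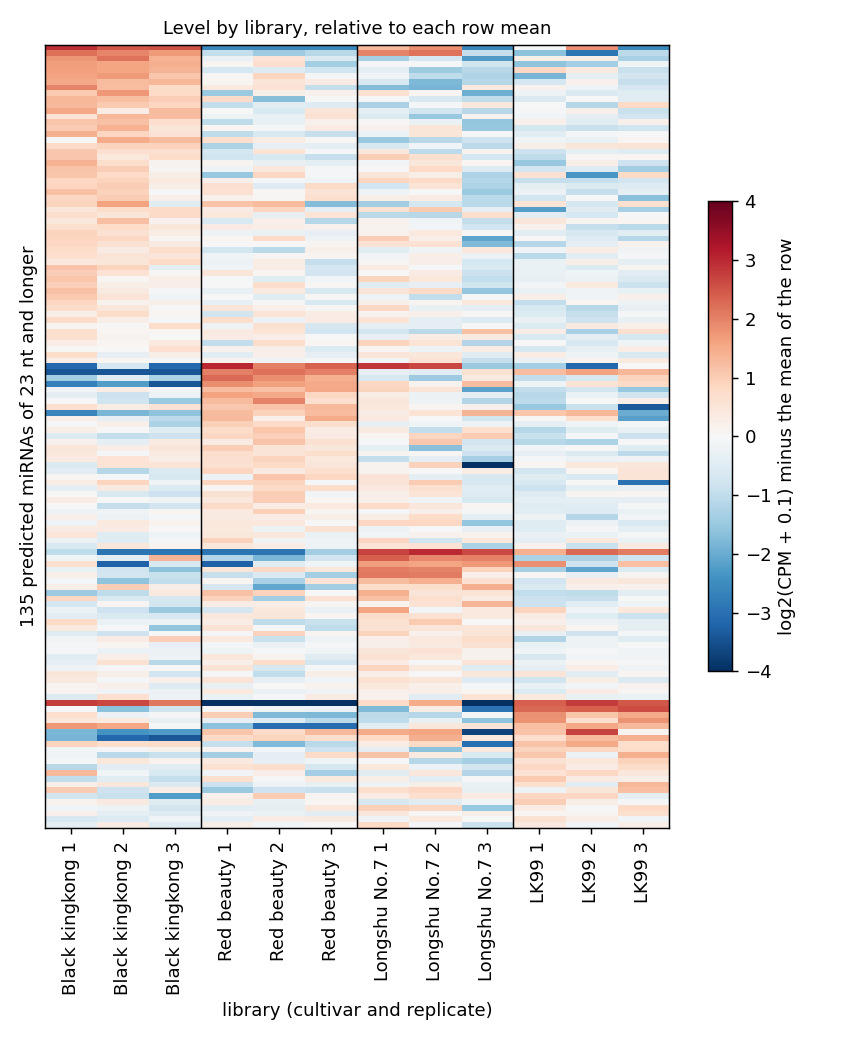
Level of the 135 sequences (lines of the map) in the 12 libraries (columns), as log2(CPM + 0.1) minus the mean of the line, with red above and blue below it; lines are ordered by the cultivar with the highest mean and by its size. All 3 Black kingkong libraries lie above the other 9 in 17 of the 135 sequences (8.67% of all entries tested), while single dark cells in the Longshu No.7 replicate 3 and LK99 replicate 3 columns are sequences at or near 0 there.

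Black kingkong against LK99 gave 38 calls (27 higher and 11 lower in Black kingkong, but 10 higher and 14 lower with library sizes alone), beside 31.3% called over all entries (12.5% higher, 18.8% lower). The median log2 fold change of the 134 was 0.42, against -0.06 over all entries tested. With library sizes alone these medians were 0.10 and -0.39. The distance between them was 0.47 on the log2 scale with TMM factors and 0.49 without, while the larger number of calls lay on the other side. TMM factors were 1.18 to 1.38 in the LK99 libraries and 0.786 to 1.12 in the others.

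Black kingkong against Red beauty gave 35 calls, 19 higher and 16 lower in Black kingkong and 23 to 11 with library sizes alone, beside 42.0% over all entries (20.2% higher, 21.8% lower). Black kingkong against Longshu No.7 gave 33, with 16 higher and 17 lower, beside 34.2% (14.6% higher, 19.6% lower). The median log2 fold changes were 0.19 against Red beauty and 0.18 against Longshu No.7, and over all entries 0.00 and -0.14. Calls against Longshu No.7 numbered 21 without Black kingkong replicate 2. Against LK99 they numbered 20 without LK99 replicate 1, 22 without LK99 replicate 3, 21 without Black kingkong replicate 1 and 22 without Black kingkong replicate 2.

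Black kingkong was in none of the other pairs. Red beauty against LK99 gave 25 calls, with 16 higher and 9 lower in Red beauty, but 5 to 17 with library sizes alone and 6 to 11 with no filter on low counts, beside 33.7% over all entries (14.5% higher, 19.2% lower). Red beauty against Longshu No.7 gave 15, with 7 higher and 8 lower, beside 23.9% (10.3% higher, 13.6% lower). The last pair, Longshu No.7 against LK99, gave 15, with 11 higher and 4 lower, but 5 to 9 with library sizes alone, beside 18.3% (8.23% higher, 10.1% lower). In the 6 pairs, in the order given from Black kingkong against LK99 on, 69, 57, 50, 53, 35 and 40 of the 135 sequences had libraries that did not overlap, called or not. Over all entries tested the shares were 49.5%, 56.4%, 47.4%, 48.2%, 34.8% and 32.1%. The comparisons share libraries and are given side by side for that reason.

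Single libraries moved these smaller counts as well. Without Longshu No.7 replicate 3 Red beauty against Longshu No.7 gave 23 calls, and without Longshu No.7 replicate 2 it gave 9. Red beauty against LK99 gave 15 without LK99 replicate 1, Red beauty replicate 1 or Red beauty replicate 2. In Longshu No.7 against LK99 7 calls were left without Longshu No.7 replicate 2, and 8 when Longshu No.7 replicate 1 or LK99 replicate 1 was omitted.

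**Figure D4:**
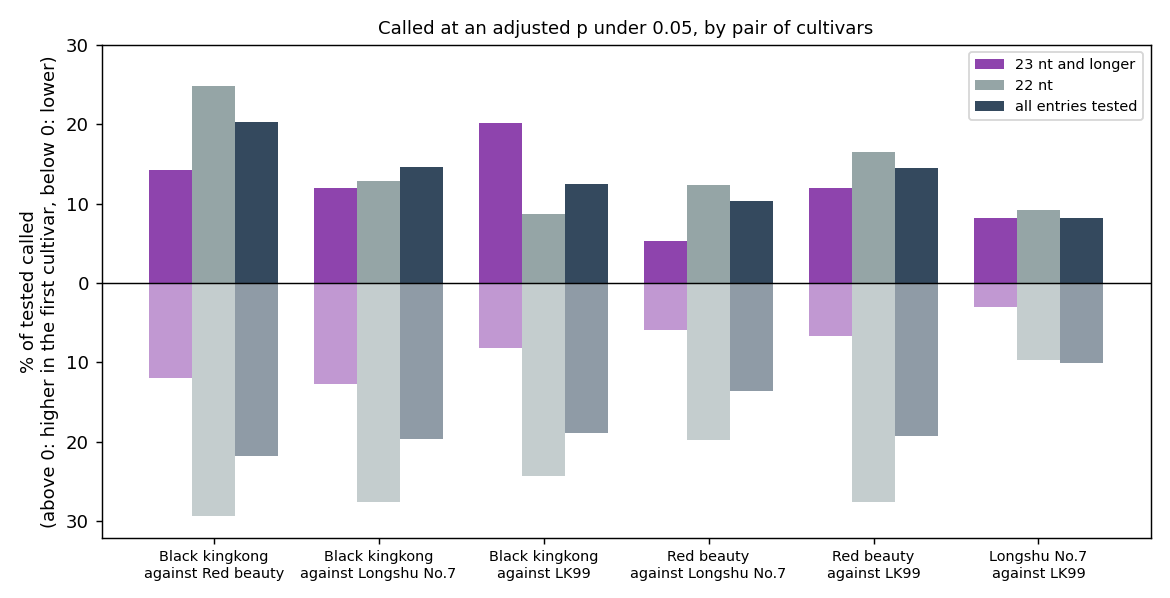
Share of tested sequences called (adjusted p under 0.05, in %) for each pair of cultivars, with those higher in the first-named cultivar drawn up from 0 and those lower drawn down, for the predicted sequences of 23 nt and longer, those of 22 nt and all entries tested. In Black kingkong against LK99 the longer class had 27 calls above 0 and 11 below, while all entries had 12.5% above and 18.8% below; with library sizes alone the class had 10 above and 14 below.

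The most counted sequence of the class passed no test of a difference with these settings. In CPM, m0947-5p read 57.1, 62.4 and 46.8 for Black kingkong, 55.4, 48.5 and 54.8 for Red beauty, 68.8, 75.3 and 89.4 for Longshu No.7, and 48.2, 51.0 and 57.3 for LK99. The Longshu No.7 libraries were all above the other 9, but by little, and the test of any difference did not pass (adjusted p = 0.11, edgeR quasi-likelihood). Longshu No.7 against LK99 gave a log2 fold change of 0.58 with an SE of 0.23 (adjusted p = 0.1). Its total of 4595 compared with 30 for the other arm of its predicted hairpin. The smallest test statistics among sequences of at least 5 CPM belonged to m5125-5p, m6212-5p and m1502-5p (adjusted p = 0.98, 0.62 and 0.4). Levels of m5125-5p were 7.10 ± 0.817 CPM for Black kingkong, 6.53 ± 0.786 for Red beauty, 6.53 ± 3.27 for Longshu No.7 and 7.04 ± 1.52 for LK99 (SD, n = 3). Without Longshu No.7 replicate 3, where it read 1.51 CPM against 8.32 and 8.25 in replicates 1 and 2, m1502-5p did pass (adjusted p = 0.013). The letters of m6212-5p hold a run known from the D-arm of transfer RNA genes.
m6212-5p: gCCCGTATagctcagtggtagag

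Red beauty had few or no counts of some sequences that other tubers had. In CPM, m2100-5p read 14.1, 13.0 and 8.88 for Black kingkong, 0 in all 3 Red beauty libraries, 3.40, 5.67 and 0 for Longshu No.7, and 10.8, 14.2 and 11.4 for LK99. Black kingkong and LK99 were high, Red beauty had no count at all, and Longshu No.7 lay between them in replicates 1 and 2 and had none in replicate 3. A count of 0 over Red beauty allows up to 0.181 CPM (3 counts over the cultivar), so the level was at least 67.7-fold higher for Black kingkong and at least 66.7-fold higher for LK99 (adjusted p = 0.00045 and 0.00051, edgeR quasi-likelihood). The pair Longshu No.7 against LK99 did not pass with all libraries (log2 fold change of -1.96 with SE 0.71, adjusted p = 0.077) and passed without Longshu No.7 replicate 3 (-1.43, SE 0.36, adjusted p = 0.014). Likewise Longshu No.7 against Black kingkong had an adjusted p of 0.054 with that library and 0.011 without it.

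Another sequence without any Red beauty count was m4768-5p. Its CPM was 4.44, 3.22 and 3.41 for Black kingkong, 1.39, 2.06 and 0 for Longshu No.7, and 0.482, 2.03 and 0 for LK99. Black kingkong stood above all other libraries, at least 20.6-fold above Red beauty (adjusted p = 0.0045), while replicate 3 of both Longshu No.7 and LK99 was at 0. Nearly absent was m3194-3p, which had 1 count for Red beauty, 40 for Black kingkong, 15 for Longshu No.7 and 46 for LK99. The ratio of Black kingkong to Red beauty was 33.0 (95% exact interval 5.59 to 1336, counting error only), and the pair passed the test (adjusted p = 0.001). Less extreme was m6039-5p, at 0.971 ± 0.167 CPM for Red beauty and 3.69 ± 1.16 for Black kingkong (log2 fold change of 1.92 with SE 0.39, adjusted p = 0.0016).

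In Black kingkong it was m2657-5p that had no count. It read 4.18, 4.83 and 4.23 CPM for Red beauty, 0.756, 0.688 and 1.51 for Longshu No.7, and 2.41, 3.19 and 2.59 for LK99. The 4 cultivars did not overlap, in the order Red beauty, LK99, Longshu No.7 and Black kingkong. Since 0 counts allow up to 0.149 CPM in Black kingkong, Red beauty was at least 29.5-fold higher, LK99 at least 18.2-fold and Longshu No.7 at least 6.20-fold (adjusted p = 1e-05, 3.9e-05 and 0.00073). Red beauty against LK99 did not pass (log2 fold change of 0.69 with SE 0.34, adjusted p = 0.15), and Red beauty against Longshu No.7 did (2.20, SE 0.40, adjusted p = 0.0019).

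More abundant sequences were also low there. In CPM, m5006-5p read 1.48, 2.05 and 0.854 for Black kingkong, 36.6, 31.9 and 29.2 for Red beauty, 18.0, 11.2 and 23.8 for Longshu No.7, and 8.92, 14.8 and 17.5 for LK99. Red beauty was above every other library and Black kingkong below, and Longshu No.7 and LK99 overlapped. The log2 fold change of Black kingkong was -4.45 against Red beauty (SE 0.43, adjusted p = 5.8e-06), -3.56 against Longshu No.7 (SE 0.42, adjusted p = 4e-05) and -3.20 against LK99 (SE 0.42, adjusted p = 0.0001). A further one, m2339-3p, was at 0.664 ± 0.477 CPM for Black kingkong, 8.09 ± 0.578 for Red beauty, 9.07 ± 3.43 for Longshu No.7 and 10.4 ± 2.61 for LK99. Its 9 other libraries overlapped, and the pairs among them had adjusted p of 0.51 to 0.84. Over the 12 libraries the log2 CPM of m2657-5p was most like that of m5006-5p (r = 0.932) and m2339-3p (r = 0.880), 3 sequences that the same low libraries bring together.

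The 25 nt sequence m5703-3p, named here after its values were seen, was low in Black kingkong too.
m5703-3p: tACTAGTTccatttctctgattgcc
Its CPM was 0.539, 1.03 and 1.20 there, 9.36, 7.34 and 9.19 for Red beauty, 4.79, 5.67 and 9.94 for Longshu No.7, and 8.43, 9.73 and 0.908 for LK99. LK99 replicate 3 fell inside the Black kingkong range and the other LK99 libraries were with Red beauty. Black kingkong against Red beauty gave a log2 fold change of -3.22 with an SE of 0.70 (adjusted p = 0.0024).

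One sequence split the cultivars in pairs. For m2733-5p Black kingkong had 2 counts and Red beauty 1, against 93 for Longshu No.7 and 63 for LK99. The CPM for Longshu No.7 was 4.79, 5.84 and 4.54, and for LK99 it was 1.93, 3.49 and 2.98, while the highest of the other 6 libraries read 0.269. Longshu No.7 exceeded Black kingkong by a ratio of 50.9 (95% exact interval 13.7 to 426, counting error only, adjusted p = 6.9e-05) and LK99 did so by 27.7 (7.35 to 233, adjusted p = 0.00042). Against Red beauty the ratios were 84.0 and 45.7 (adjusted p = 0.00022 and 0.00035). Longshu No.7 and LK99 did not overlap but their difference did not pass (log2 fold change of 0.86 with SE 0.43, adjusted p = 0.2).

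A different pairing, Red beauty with Longshu No.7, was seen for m0123-3p and m4482-3p. In CPM, m0123-3p read 0, 0.439 and 0 for Black kingkong, 7.02, 3.48 and 4.41 for Red beauty, 6.30, 5.50 and 0.216 for Longshu No.7, and 0.241, 0 and 0.778 for LK99. Longshu No.7 replicate 3 was at the level of Black kingkong and LK99, and not with its own replicates. Red beauty exceeded Black kingkong by a ratio of 33.9 (95% exact interval 11.2 to 168, 84 counts against 3, adjusted p = 0.0036), and it exceeded LK99 by 3.77 on the log2 scale (SE 0.97, adjusted p = 0.0087). Longshu No.7 against LK99 gave a log2 fold change of 3.50 with an SE of 0.97 (adjusted p = 0.023) and, without replicate 3, 4.02 (SE 0.70, adjusted p = 0.001). It did not pass without Longshu No.7 replicate 1 or 2, or without LK99 replicate 1 or 2 (adjusted p of up to 0.095).

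The 24 nt m4482-3p read 8.08, 5.56 and 3.07 CPM for Black kingkong, 13.9, 17.6 and 13.4 for Red beauty, 41.5, 39.2 and 18.1 for Longshu No.7, and 3.86, 2.18 and 6.74 for LK99. Longshu No.7 was highest, Red beauty next without overlap, and Black kingkong and LK99 overlapped. Longshu No.7 against LK99 gave a log2 fold change of 2.94 with an SE of 0.48 (adjusted p = 0.00089) and Red beauty against LK99 one of 1.80 (SE 0.47, adjusted p = 0.0089), which did not pass with library sizes alone. Red beauty against Longshu No.7 did not pass with all libraries (-1.14, SE 0.44, adjusted p = 0.079) and passed without Longshu No.7 replicate 3 (-1.43, SE 0.40, adjusted p = 0.018).

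Another pairing, Black kingkong with Longshu No.7, was shown by m2385-5p. It read 8.35, 6.88 and 5.80 CPM for Black kingkong, 0.836, 0.579 and 0.735 for Red beauty, 7.18, 8.08 and 0.864 for Longshu No.7, and 0.482, 0.145 and 0.778 for LK99. Again Longshu No.7 replicate 3 left its cultivar, and here it lay just above the Red beauty and LK99 libraries. Black kingkong against LK99 gave a log2 fold change of 3.83 with an SE of 0.69 (adjusted p = 0.0011) and against Red beauty one of 3.25 (SE 0.68, adjusted p = 0.0019). Longshu No.7 against LK99 had one of 3.47 (SE 0.69, adjusted p = 0.0033), and of 3.94 without replicate 3 (SE 0.43, adjusted p = 3.3e-05).

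A pair of further abundant sequences showed the same library apart, so their Longshu No.7 level rests on which libraries are used. For m2292-3p the Longshu No.7 libraries read 11.5, 16.2 and 1.08 CPM, beside 16.1 ± 0.993 for Black kingkong, 3.99 ± 1.13 for Red beauty and 20.9 ± 5.79 for LK99. Red beauty against Longshu No.7 had an adjusted p of 0.16 with all libraries and of 0.0015 without replicate 3 (log2 fold change -1.27, SE 0.62, and -1.78, SE 0.33). For m5112-3p they read 22.6, 21.3 and 5.62 CPM, beside 20.4 ± 3.53 for Black kingkong, 12.4 ± 1.76 for Red beauty and 6.81 ± 0.502 for LK99. Black kingkong against LK99 passed for m5112-3p with and without that library (log2 fold change of 1.58 with SE 0.42, adjusted p = 0.012, and 1.58, SE 0.24, adjusted p = 0.00022). With library sizes alone this pair of m5112-3p did not pass.

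**Figure D5:**
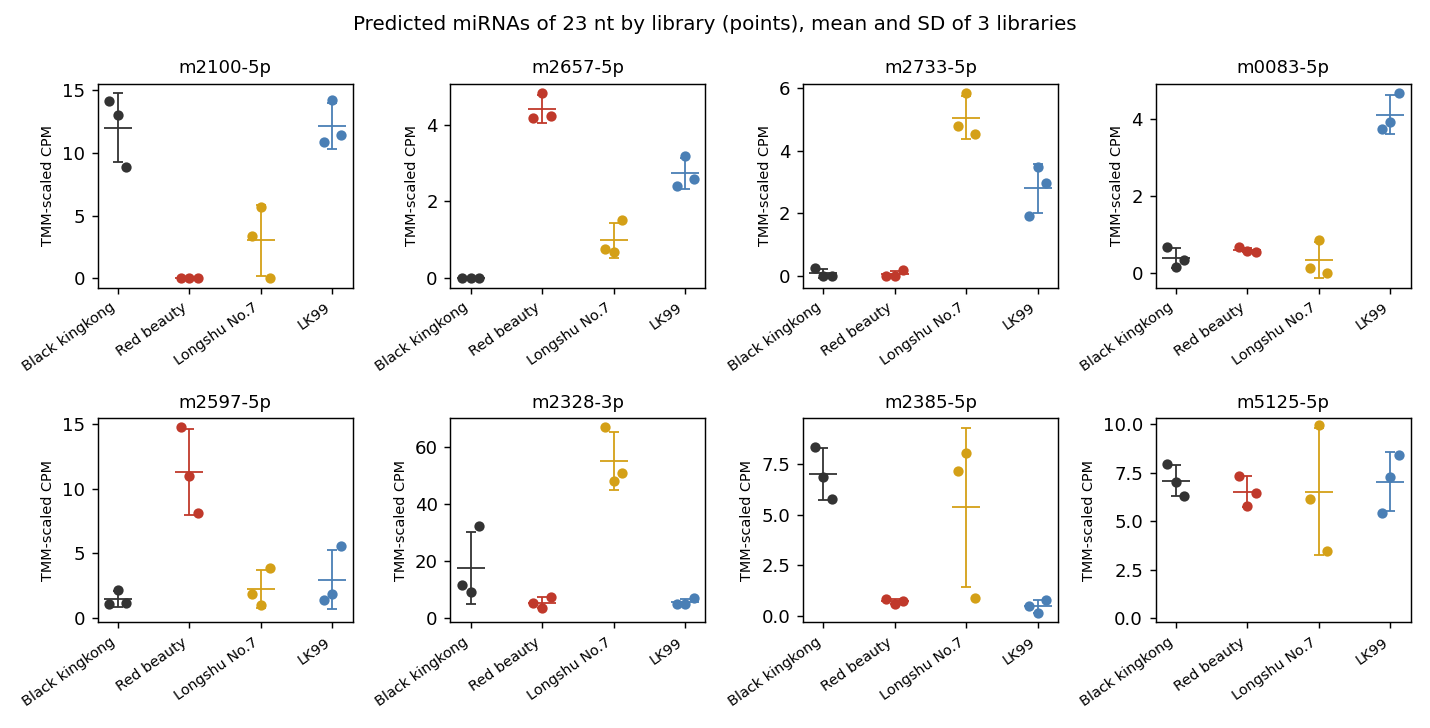
TMM-scaled CPM (vertical axes) of 8 sequences of 23 nt in the 4 cultivars; points are libraries in replicate order, and bars are mean and SD of 3. Red beauty is at 0 for m2100-5p and Black kingkong for m2657-5p, LK99 alone is raised for m0083-5p, and Longshu No.7 replicate 3 lies apart from its cultivar for m2100-5p and m2385-5p.

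Some sequences stood highest or lowest in 1 cultivar. All 3 Black kingkong libraries were above the other 9 in 17 of the 135 sequences, and those of Red beauty, Longshu No.7 and LK99 in 9, 6 and 4. Over all entries tested these shares were 8.67%, 8.45%, 4.37% and 6.45%. All 3 were below the other 9 in 5, 4, 2 and 5 sequences in the same order, beside 8.38%, 6.60%, 2.82% and 4.89% of all entries. For m1132-5p the Black kingkong libraries read 5.12, 6.74 and 3.93 CPM, and those of the other cultivars 0.216 to 2.12 CPM. The log2 fold changes were 1.90 against Red beauty (SE 0.48, adjusted p = 0.0061), 3.24 against Longshu No.7 (SE 0.54, adjusted p = 0.00061) and 1.99 against LK99 (SE 0.47, adjusted p = 0.006). The same pattern was shown by m3370-3p, at 10.6 ± 0.797 CPM in Black kingkong and means of 1.83 to 3.52 CPM elsewhere. It was also shown by m3258-3p, at 5.44 ± 0.556 CPM in Black kingkong and means of 0.880 to 2.55 CPM elsewhere, and by m2321-3p, at 3.38 ± 0.730 CPM and 0.587 to 1.47 CPM. All 3 passed the test against each other cultivar (adjusted p of 0.00046 to 0.041). Against Red beauty each of these calls ended when single libraries were left out. That of m3370-3p ended without Black kingkong replicate 1 or Red beauty replicate 1 or 3 (adjusted p of up to 0.064), and that of m3258-3p without any 1 of the 6 libraries compared (adjusted p of up to 0.11) and with no filter on low counts. That of m2321-3p ended without Black kingkong replicate 1 or 2, or Red beauty replicate 1 or 3 (adjusted p of up to 0.13). It also ended with DESeq2, with no filter on low counts and with 1 entry kept per distinct sequence.

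In Red beauty m2597-5p read 14.7, 11.0 and 8.09 CPM. The other libraries lay between 1.03 and 5.58 CPM, the highest of them LK99 replicate 3, whose companions read 1.45 and 1.89. Red beauty against LK99 gave a log2 fold change of 1.92 with an SE of 0.54 (adjusted p = 0.015) and, without that library, 2.67 (SE 0.53, adjusted p = 0.0017). It did not pass without LK99 replicate 1 or 2, or Red beauty replicate 1 (adjusted p of up to 0.06). The levels of m0426-3p were 3.78 ± 1.05 CPM in Red beauty and 0.847 ± 0.286 to 1.35 ± 0.365 elsewhere, and all 3 pairs with Red beauty passed (adjusted p of 0.0011 to 0.015). The pair of m0426-3p with Longshu No.7 did not pass without Red beauty replicate 1 or 2, or Longshu No.7 replicate 2 (adjusted p of up to 0.069). Nor did it pass with no filter on low counts. For m1753-5p Red beauty was at 3.18 ± 0.296 CPM and the others at 1.48 to 1.54 CPM, and Red beauty against Longshu No.7 narrowly missed the threshold (log2 fold change of 1.10 with SE 0.38, adjusted p = 0.052). The pairs of Red beauty with Black kingkong and LK99 passed (adjusted p = 0.036 and 0.043). These calls of m1753-5p ended without any 1 of 7 and of 9 libraries, respectively (adjusted p of up to 0.12). Both also ended with DESeq2, with library sizes alone and with no filter on low counts.

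Longshu No.7 had the highest level of m2328-3p, the sequence with the next highest total after m0947-5p. In CPM it read 11.7, 9.08 and 32.3 for Black kingkong, 5.52, 3.48 and 7.35 for Red beauty, 67.0, 48.1 and 51.0 for Longshu No.7, and 5.18, 5.08 and 7.13 for LK99. Longshu No.7 did not overlap any other cultivar, and Black kingkong replicate 3 stood well above its companions. The log2 fold change of Longshu No.7 against LK99 was 3.25 (SE 0.47, adjusted p = 0.00038), and that of Red beauty against Longshu No.7 was -3.34 (SE 0.48, adjusted p = 0.0003). Black kingkong against LK99 passed with all libraries (1.60, SE 0.45, adjusted p = 0.017) and not without Black kingkong replicate 3 (0.84, SE 0.36, adjusted p = 0.1), nor without LK99 replicate 1 or 2. The same held for Black kingkong against Red beauty (1.69, adjusted p = 0.0096, and 0.93, adjusted p = 0.062). A weaker case was m5930-3p, at 2.53 ± 0.714 CPM in Longshu No.7 and means of 0.627 to 1.20 CPM elsewhere, where of the 3 pairs with Longshu No.7 only that with Black kingkong passed (adjusted p = 0.018). That call of m5930-3p ended without Black kingkong replicate 2 or 3, or Longshu No.7 replicate 1 or 2 (adjusted p of up to 0.075).

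Low in Longshu No.7 was m2673-3p. It read 9.02, 10.7 and 8.88 CPM for Black kingkong, 11.2, 13.3 and 9.74 for Red beauty, 3.65, 5.50 and 2.81 for Longshu No.7, and 6.99, 6.10 and 6.48 for LK99. The Longshu No.7 libraries were all below the other 9, and the cultivars ran in the order Red beauty and Black kingkong, which overlapped, then LK99, then Longshu No.7. Red beauty against Longshu No.7 gave a log2 fold change of 1.51 with an SE of 0.31 (adjusted p = 0.0033), while Longshu No.7 against LK99 did not pass (-0.70, SE 0.31, adjusted p = 0.14). The other such sequence was m0075-3p, at 0.514 ± 0.135 CPM in Longshu No.7 and 1.13 ± 0.146 to 2.65 ± 1.28 CPM elsewhere.

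In LK99 m0083-5p read 3.74, 3.92 and 4.67 CPM. The other 9 libraries read 0 to 0.859 CPM, which is 8 counts for Black kingkong, 10 for Red beauty and 6 for Longshu No.7 against 94 for LK99. The totals of m0083-5p (118) and of m0349-3p and m0259-5p, described below (100 and 106), reached 100 only through LK99. The rule thus took these sequences in through the cultivar where they were high. The log2 fold change of LK99 was of similar size in each pair: -3.32 for Black kingkong against it (SE 0.61, adjusted p = 0.0012), -2.73 for Red beauty (SE 0.59, adjusted p = 0.003) and -3.57 for Longshu No.7 (SE 0.64, adjusted p = 0.0015). Its level was most like that of m0349-3p over the 12 libraries (r = 0.827), which was at 2.65 ± 1.04 CPM in LK99 and means of 0.427 to 1.02 CPM elsewhere. All 3 pairs of m0349-3p with LK99 passed, but that of Black kingkong (adjusted p = 0.036) ended without any 1 of 5 libraries (up to 0.14). It also ended with DESeq2 and with no filter on low counts. For m0259-5p LK99 was at 2.71 ± 0.671 CPM and the others at means of 0.529 to 1.02 CPM, but Black kingkong against LK99 did not pass (adjusted p = 0.099). Red beauty and Longshu No.7 against LK99 passed for m0259-5p (adjusted p = 0.045 and 0.026). These calls ended without any 1 of 8 and of 3 libraries, respectively (adjusted p of up to 0.15). The call of m0259-5p for Red beauty also ended with DESeq2 and with 1 entry kept per distinct sequence.

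LK99 was lowest for m1958-3p, which read 0.723, 1.16 and 0.130 CPM there. It was at 3.28 ± 0.443 CPM for Black kingkong, 5.19 ± 0.450 for Red beauty and 2.67 ± 0.317 for Longshu No.7, and none of those libraries was as low as any for LK99. All 3 pairs with LK99 passed, with log2 fold changes of 2.28 for Black kingkong (SE 0.48, adjusted p = 0.003), 2.94 for Red beauty (SE 0.48, adjusted p = 0.00044) and 1.99 for Longshu No.7 (SE 0.49, adjusted p = 0.012). The pair of m1958-3p for Longshu No.7 had an adjusted p of 0.055 without its replicate 1. For m2174-3p LK99 was also below all others with TMM factors, at 1.61 ± 0.135 CPM. Red beauty at 1.93 ± 0.0842 CPM was close and that pair did not pass (adjusted p = 0.62). With library sizes alone LK99 was not below Red beauty, as the counts were 14, 10 and 13 in LK99 and 12, 10 and 10 in Red beauty. Black kingkong against LK99 passed for m2174-3p (adjusted p = 0.011). That call ended with library sizes alone, with no filter on low counts and without Black kingkong replicate 1 (adjusted p = 0.058).

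Several sequences were near copies of each other. Compared over at least 17 nt with at most 3 mismatches, 11 pairs were alike on the same strand and 3 as reverse complements, and 19 sequences were in any pair. Each was tested by itself, and reads of near copies may be hard for a counting program to assign. The largest group was the 3 sequences below, with m2093-5p as their complement.
m1192-3p: tTTCCGATcaaacttaaactgtt
m1145-3p: tTACCGGTcaaacttaaactgtt
m3144-3p: tTTTCGATcaaacttaaactgtt
m2093-5p: tTAAGTTTgaccgagaattttct

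The seeds of these near copies differ while the 3′ part is shared. None of the 4 passed the test of any difference (adjusted p = 0.15, 0.084, 0.69 and 0.59 in the printed order). Levels of m1192-3p were 8.17 ± 0.626 CPM for Black kingkong, 8.52 ± 0.653 for Red beauty, 12.2 ± 1.66 for Longshu No.7 and 8.36 ± 0.435 for LK99. Its near copy m1145-3p was instead highest in Red beauty, at 9.05 ± 2.84 CPM, and Red beauty against LK99 passed (log2 fold change of 0.93 with SE 0.31, adjusted p = 0.032). That call of m1145-3p ended with library sizes alone and with no filter on low counts. It also ended without any 1 of the LK99 libraries, Red beauty replicate 1 or 2 or Longshu No.7 replicate 1 (adjusted p of up to 0.16). The pair m6095-3p and m3535-3p differed by 1 base and shared a seed. Only m6095-3p passed (adjusted p = 0.042, against 0.14 for m3535-3p), and the difference between near copies was not tested. The group of m5922-5p, m5945-5p and m6204-3p had adjusted p of 0.028, 0.23 and 0.31.

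Near matches to named miRNAs were found on the opposite strand, of which some are given here, and matches on the same strand are given below. The sequences m1132-5p and m1546-5p, which differed by 3 mismatches, paired with stu-miR8006-5p over 19 nt with 1 and 2 mismatches. The other arm listed with m1546-5p, m1546-3p, is printed with them, and capitals mark bases 2 to 8 of the 2 sequences in the class.
m1132-5p: cCCTGTCGtctaaaaactagagc
m1546-5p: cCCTGCCAtccaaaaactagagc
m1546-3p: tctagtttttggacgacagggac
stu-miR8006-5p: tagtttttggacgacaggggcacc

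The counts of stu-miR8006-5p were 198 ± 15.4 CPM for Black kingkong, 7.26 ± 1.61 for Red beauty, 6.30 ± 0.660 for Longshu No.7 and 102 ± 3.20 for LK99. On the opposite strand m1546-5p also paired with miR8006-x, over 19 nt with 2 mismatches. That entry was instead highest in LK99, at 107 ± 4.44 CPM, with 74.5 ± 4.89 for Black kingkong, 35.8 ± 2.80 for Red beauty and 50.9 ± 7.07 for Longshu No.7. The level of m1132-5p was high for Black kingkong alone, with 1.32 ± 0.691 CPM for LK99 and 1.40 ± 0.636 for Red beauty. The level of m1546-5p did not differ detectably (adjusted p = 0.22), at 43 counts for Black kingkong, 20 for Red beauty, 35 for Longshu No.7 and 24 for LK99. Its other arm m1546-3p, outside the class with a total of 60 and named after its values were seen, had 0, 1, 5 and 54 counts in the same order, and Longshu No.7 against LK99 passed (log2 fold change of -3.08 with SE 0.71, adjusted p = 0.01). On the same strand m1546-5p matched miR8006-y with 2 mismatches over 21 nt, and m1089-5p matched stu-miR7983-3p with 1 mismatch over 19 nt. Also on that strand, m1782-5p matched miR7980-x with 1 mismatch over 23 nt. On the opposite strand m1782-5p paired with stu-miR7980b-3p over 20 nt with 1 mismatch, among other entries. It read 0.864 to 3.91 CPM over the 12 libraries and did not differ detectably (adjusted p = 0.67), and miR7980-x was at 44.1 ± 3.82 CPM for Black kingkong and 39.3 ± 8.26 for LK99. One sequence, m2292-3p, held a predicted entry of 22 nt, m0400-5p (total 494), from its first base on.

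By the entry kept for each of the 135 sequences, 22 had the other arm of their predicted hairpin in the table, from 20 hairpins. Of the 22, 19 were counted more than it. With any of their entries counted, 23 sequences had another arm listed. In 5 hairpins, picked after the values were seen, both arms had a total of at least 100: those of m4482, m0940, m1779, m2936 and m0073. Only in m0940 and m0073 were both arms in the class.
m0940-5p: tCCAACTTtgggtgtgcacaagt
m0940-3p: tGTGCACAccaaagttggaggac
m0073-5p: tTATCTGAaaagtcatgacctttt
m0073-3p: aAGGCACAactctttggaaaagt

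Both arms of m0940 were high in Black kingkong. The 5p arm read 6.46, 6.15 and 5.29 CPM there and 0.688 to 3.61 in the other libraries, and the 3p arm read 7.95, 8.64 and 8.71 against 1.84 to 6.61. Black kingkong against Red beauty passed for both, with log2 fold changes of 2.29 (SE 0.45, adjusted p = 0.0013) and 1.49 (SE 0.35, adjusted p = 0.004). Against LK99 the 5p arm passed (1.29, SE 0.41, adjusted p = 0.028) and the 3p arm did not (0.46, SE 0.33, adjusted p = 0.32). That call of m0940-5p ended with library sizes alone, with DESeq2 and with no filter on low counts. It also ended without Black kingkong replicate 1 or 2 or LK99 replicate 2 or 3 (adjusted p of up to 0.1). For m0073 only the 5p arm passed the test of any difference. It was low for Black kingkong (10 counts, with 28, 30 and 40 for Red beauty, Longshu No.7 and LK99, adjusted p = 0.038). The 3p arm had 54 counts for Black kingkong and 29, 38 and 30 elsewhere (adjusted p = 0.33). The 3 pairs of m0073-5p with Black kingkong passed (adjusted p of 0.022 to 0.029). Each call ended without Black kingkong replicate 3, among other libraries (adjusted p of up to 0.095), and with no filter on low counts. The calls of m0073-5p with Red beauty and Longshu No.7 also ended with DESeq2 and with library sizes alone. No test of the balance between arms was made.

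The balance of the arms also varied for m2936 and m4482. Of the counts on both arms of m2936, the 5p arm, in the class, held 95.4% for Black kingkong, 44.8% for Red beauty, 77.7% for Longshu No.7 and 90.8% for LK99. By library, 5p and 3p counts were 27 and 0, 18 and 0, and 17 and 3 for Black kingkong, and 56 and 76, 53 and 43, and 36 and 60 for Red beauty. In Longshu No.7 they were 44 and 24, 56 and 19, and 50 and 0, so replicate 3 had no 3p count, and in LK99 they were 23 and 3, 34 and 3, and 22 and 2. The 3p arm was higher for Red beauty than for LK99 by 4.86 on the log2 scale (SE 0.87, adjusted p = 0.00088), and the 5p arm by 1.31 (SE 0.37, adjusted p = 0.014). That call of m2936-5p ended without LK99 replicate 1 or 3 or Red beauty replicate 2 (adjusted p of up to 0.066), with library sizes alone and with no filter on low counts.

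For m4482 the 3p arm, in the class, held 40.4% of the counts on both arms for Black kingkong, 60.2% for Red beauty, 73.9% for Longshu No.7 and 67.8% for LK99. It was below the 5p arm in each Black kingkong library, at 60 and 75, 38 and 63, and 18 and 33 counts, and above it in every library of the other cultivars. The 5p arm of 22 nt did not differ between Black kingkong and Longshu No.7 beyond its error (log2 fold change of -0.50 with SE 0.37, adjusted p = 0.31), while the 3p arm did (-2.55, SE 0.47, adjusted p = 0.0011). For m1779 the 3p arm, in the class, held 50.8% for Black kingkong, 43.0% for Red beauty, 38.5% for Longshu No.7 and 59.1% for LK99. Its 5p arm was lower in Black kingkong than in Red beauty and Longshu No.7 (adjusted p = 0.011 and 0.023). The 3p arm passed for Black kingkong against Red beauty and LK99 (adjusted p = 0.026 and 0.015), but both calls ended without single libraries.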

How the data were processed

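Whole-number counts per mature sequence and library were deposited by the authors in 1 table, without normalization per the file headers, beside a deposited total and a length column (unit other, in nt). The 12 per-library TPM columns were not used. The sources used here name no aligner, counting program or genome build, and no coordinates are given. The members and lists were chosen with earlier results of these data known.

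Counts of all entries were fitted by the quasi-likelihood F-test of edgeR 4.0.16, under R 4.3.3 and limma 3.58.1, with 1 coefficient per cultivar, after filterByExpr (minimum count 10, minimum total 15) and TMM scaling. Each comparison had its own Benjamini-Hochberg adjustment, with a threshold of 0.05. The standard error was taken as the size of the log2 fold change divided by the root of F. The steps were tested on simulated data. A count of 0 was read as up to 3 counts over a cultivar. Named sequences were the 10 highest totals, those most separated by cultivar, by split of the cultivars in pairs or by contrast, the flattest, those at the edge of the rule, their near copies and those most alike over the libraries; others are marked as chosen after their values were seen. DESeq2 1.42.0, other scalings and filters, other member rules and leaving out libraries were the alternatives. Same-numbered libraries were checked for shared deviations (r of -0.072 to 0.147 over 18 pairs), and the numbers were not taken as pairing. Intervals and limits cover counting error only.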

Additional observations from a re-analysis of the deposited data

How the results depend on the processing

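Calls are given in the order any difference, Black kingkong against Red beauty, Longshu No.7 and LK99, Red beauty against Longshu No.7 and LK99, and Longshu No.7 against LK99. The counts reported were 59, 35, 33, 38, 15, 25 and 15. With a filter of at least 10 CPM in 3 libraries, which left 10 sequences, they were 7, 6, 5, 4, 4, 5 and 4. For the 3 sequences of 24 nt they were 2, 2, 2, 1, 0, 1 and 1, and for the 26 with a total of 300 or more 14, 11, 10, 8, 5, 9 and 5; fewer sequences enter by construction. The 0 for 24 nt stands beside 4 calls in that pair under the 10 CPM filter. Black kingkong against LK99 gave 24 with library sizes alone, 23 with no filter and 25 with DESeq2; the cause was not tested. Black kingkong against Red beauty gave 34, 28 and 28 in the same settings, so which pair had the most calls depends on them. Leaving out 1 library gave 38 to 66, 25 to 44, 21 to 36, 20 to 48, 9 to 23, 15 to 30 and 7 to 20. Without replicate 3 of Longshu No.7 and of LK99, chosen after seeing the data, Red beauty against Longshu No.7 gave 28 and Longshu No.7 against LK99 gave 23. With replicate number as a block the counts were 55, 33, 33, 36, 14, 24 and 11. Among the calls described, the block ended that of m0123-3p for Longshu No.7 against LK99. It also ended those of m1753-5p for Red beauty against LK99 and of m0349-3p for Black kingkong against LK99. Deviations of same-numbered libraries from their group means correlated by only -0.072 to 0.15, so the numbers were not taken as pairs.

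The summed level in unscaled CPM was 245 for Black kingkong, 223 for Red beauty, 323 for Longshu No.7 and 273 for LK99 with totals of 300 or more. With all entries of a sequence summed it was 630, 541 and 652 without Longshu No.7, which moved within its spread. Relative to the counts of predicted entries alone it was 12951, 26780, 29122 and 13406 CPM in the first order, and leaving out 1 library gave 433 to 541, 389 to 445, 466 to 607 and 485 to 502. For 58 named sequences, 1112 alternatives were compared, with at most 1 pair per sequence in each setting and not every pair reported. Of these, 1042 kept direction and side of the threshold, 50 lost the call and 19 gained it. One reversed: m3144-3p, Red beauty against LK99, went from 0.46 to -0.040 on the log2 scale with library sizes alone, without a call in either. Of the 161 calls over all pairs, 86 ended when at least 1 of the libraries was left out. Most sequences had only a few counts per library, so a missed threshold does not show equal levels.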
